A study of Mus musculus with 18 samples.

Results

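The lipoxygenases of skin are described here as 8 genes of back skin RNA: the 7 lipoxygenases Alox12e, Alox12b, Aloxe3, Alox12, Alox15, Alox8 and Alox5, and Alox5ap, the membrane protein that hands arachidonate to the Alox5 enzyme. They were matched by symbol among 55357 genes in the deposited table. All 8 were found, and all 8 were among the 17667 genes that reached 10 normalized counts in at least 6 libraries and were tested. The family was chosen by the level of Alox12e, which is high in the libraries labelled C-IKKα, so every member value that sets C-IKKα against another group, counts past a threshold included, is a description and supports no call.

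The study measured total RNA of back skin from 18 mice of the FVB background at the age of 6 months, with 1 library per mouse. There were 6 wild type mice (WT), 6 transgenic mice with exogenous IKKα in the nucleus of keratinocytes (N-IKKα) and 6 with exogenous IKKα in their cytoplasm (C-IKKα). IKKα is the product of Chuk, acts as a kinase in the NF-κB pathway and has a role in keratinocyte differentiation. For the transgenes, the promoter, the number of lines and whether WT mice were littermates are not given in the sources used here. As cell type the labels say only skin cells, and whole skin holds epidermis, hair follicles, sebaceous glands, dermis, fat, muscle and immune cells, so fewer cells of a type and less RNA per cell cannot be told apart in these data.

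Lipoxygenases add oxygen to polyunsaturated fatty acids such as arachidonate and linoleate. In the upper epidermis Alox12b and Aloxe3 act one after the other on linoleate bound in ceramides, a step needed for the lipid envelope of the cornified cell and so for the water barrier, and loss of either enzyme causes ichthyosis. Alox12e is the epidermis-type 12S-lipoxygenase of the mouse, Alox12 the platelet-type enzyme that epidermis also makes, and Alox15 the leukocyte-type enzyme of the mouse. Alox8 is the mouse 8S-lipoxygenase, known as an enzyme that phorbol ester induces in mouse skin, and Alox5 with Alox5ap starts leukotriene synthesis.

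The libraries held between 11147431 and 15692431 recovered reads, and 1 read was worth between 0.816 and 1.20 normalized counts. Chuk was 1007 ± 147 normalized counts in WT (SD, n = 6), 990 ± 93.3 in N-IKKα (n = 6) and 889 ± 26.3 in C-IKKα (n = 6), so the gene's summed RNA does not check the transgene labels. The hair shaft and inner root sheath genes separated the libraries within every group. Their mean log2 value, over 28 of 30 listed markers, was between 9.51 and 11.9 in 6 libraries (WT 1 and 4, N-IKKα 8, 9 and 11, and C-IKKα 14) and between 2.03 and 4.87 in the other 12. Tchh, one of those markers, was listed at 0 in every library. The first set is called high hair shaft libraries and the second low hair shaft libraries; both were read from the data and are not groups of the study. By the level of the Y-linked gene Ddx3y all 6 high hair shaft libraries came from females, while 8 of the 12 low ones came from males. Hair state and sex were therefore tied, and C-IKKα had 1 high library and 4 males, against 2 high libraries and 2 males in WT and 3 high libraries and 2 males in N-IKKα.

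Of the 8 genes, 6 lie on chromosome 11 in 2 runs of neighbouring coding genes in the GENCODE M21 annotation. Aloxe3, Alox12b and Alox8 form one run, and Alox12, Alox12e and Alox15 the other. Alox5 lies on chromosome 6 and Alox5ap on chromosome 5. No pair of the members' transcripts shared a stretch of 31 bases (0 of 28 pairs), which bears on whether reads of one could be counted for another. Exons of another gene overlapped none of the 7 lipoxygenases, while 13.3% of the exon length of Alox5ap was shared with Gm19719 on the opposite strand, and the strand setting of the counting was not given.

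Promoter sequence from RefSeq on GRCm38.p6 was matched for 5 of the 8 genes (Alox12e, Alox12b, Alox12, Alox8 and Alox5). Stretches upstream of the first annotated start are shown for Alox12e, which was high in C-IKKα, for its chromosome neighbour Alox12, which was not, and for Alox8, which differed by hair state. All 3 lie on the minus strand, at chr11:70322629-70322780, chr11:70255371-70255620 and chr11:69197844-69198093, and are printed 5′ to 3′ with motif matches in capitals.
Alox12e: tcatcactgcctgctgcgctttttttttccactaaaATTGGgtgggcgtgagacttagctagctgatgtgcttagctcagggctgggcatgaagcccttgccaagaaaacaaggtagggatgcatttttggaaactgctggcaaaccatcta
Alox12: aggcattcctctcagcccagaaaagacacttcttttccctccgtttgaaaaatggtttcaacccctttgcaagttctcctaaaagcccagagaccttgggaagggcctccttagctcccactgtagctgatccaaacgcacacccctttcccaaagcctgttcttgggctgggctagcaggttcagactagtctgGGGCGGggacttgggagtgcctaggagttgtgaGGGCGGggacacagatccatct
Alox8: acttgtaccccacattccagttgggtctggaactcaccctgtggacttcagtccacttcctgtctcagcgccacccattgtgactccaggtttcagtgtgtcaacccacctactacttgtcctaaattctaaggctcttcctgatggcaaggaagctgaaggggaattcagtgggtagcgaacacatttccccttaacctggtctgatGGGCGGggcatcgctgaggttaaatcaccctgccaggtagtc
The capitals mark a CCAAT box read on the opposite strand (ATTGG) in Alox12e and GC boxes (GGGCGG) in the other genes. Alox12e also had a GC box 42 bases before its RefSeq start, outside the stretch shown. In Alox12e the match began 214 bases before the RefSeq start, in Alox12 the GC boxes began 55 and 22 bases before it, and in Alox8 the GC box began 42 bases before it. Bases just after the RefSeq start were found in the GENCODE M21 transcripts of Alox12e and Alox8 but not of Alox12. The Alox12 positions therefore hold for the RefSeq start only. Both strands were searched for 5 motifs. Over 32851 promoter windows of 250 bases, CCAAT was in 33.8%, the GC box GGGCGG in 32.7%, the κB-like motif (GGG, any 2 bases, T, any 2 bases, CC) in 15.9%, the TATA box TATAAA in 12.4% and the AP-1 motif TGANTCA in 6.75%. Of the 5 matched members only Alox5 held a κB-like match (GGGACTGGCC, beginning 53 bases before its start). These matches are descriptions of letters in the window.

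Alox12e had the highest mean level per length of the lipoxygenases in all 3 groups, and its level in C-IKKα was above that of every other mouse. Per kb of exon, normalized counts of Alox12e were 440 ± 164 in WT (SD, n = 6), 449 ± 183 in N-IKKα and 1483 ± 498 in C-IKKα. In WT the next genes by normalized count per kb were Aloxe3 at 124 ± 36.5, Alox12 at 94.5 ± 27.5, Alox5 at 90.4 ± 36.1, Alox8 at 79.4 ± 123 and Alox12b at 65.9 ± 28.0, and each mean differed from the next by less than the larger SD of the pair. Alox5ap, at 47.3 ± 9.94 per kb, and Alox15, at 7.33 ± 3.97, were lowest. In N-IKKα the order after Alox12e was Alox8, Aloxe3, Alox5, Alox12, Alox12b, Alox5ap and Alox15, and in C-IKKα it was Aloxe3, Alox5, Alox12, Alox12b, Alox5ap, Alox8 and Alox15. Alox12e made up 47.4% ± 10.1 of the per-kb sum of the 7 lipoxygenases in WT (SD, n = 6), 49.1% ± 9.16 in N-IKKα and 75.8% ± 7.24 in C-IKKα. That sum was 901 ± 178 normalized counts per kb in WT, 886 ± 226 in N-IKKα and 1923 ± 491 in C-IKKα.

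**Figure D1:**
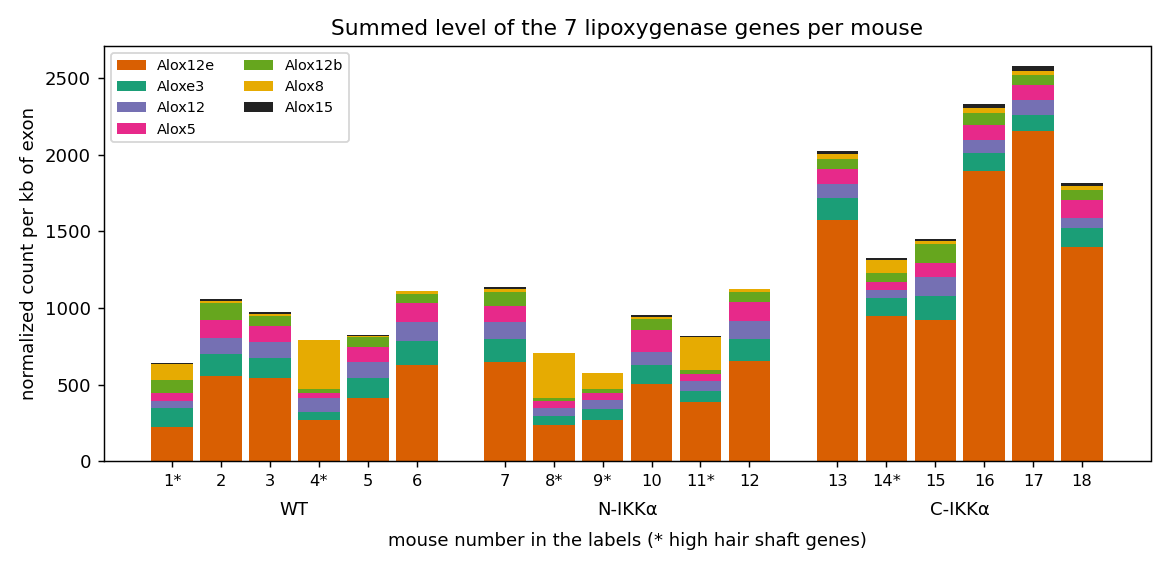
Normalized counts per kb of exon, stacked over the 7 lipoxygenase genes, for each of the 18 mice by genotype group; stars mark the high hair shaft libraries. Alox12e is the tallest segment in 16 of the 18 mice and takes between 63.6% and 83.6% of each C-IKKα bar, while Alox8 is visible mainly in the starred bars.

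Alox12e, the epidermis-type 12S-lipoxygenase (ENSMUSG00000018907.11), is the gene by which the family was chosen. Its normalized count ran from 639 to 1773 in WT with a median of 1351, from 667 to 1853 in N-IKKα with a median of 1255, and from 2610 to 6095 in C-IKKα with a median of 4208. Every C-IKKα library was above every WT and N-IKKα library, while the WT and N-IKKα ranges covered nearly the same span. The fitted difference of C-IKKα from WT was 1.78 on the log2(normalized count + 1) scale (SE 0.31, 3.43-fold). N-IKKα against C-IKKα gave -1.76 (SE 0.31), and these comparisons share the C-IKKα libraries. N-IKKα differed from WT by 0.02 (SE 0.31, 95% limits -0.64 to 0.67; limma adjusted p = 0.992).

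The difference in Alox12e was also present without the high hair shaft libraries. Among the 12 low hair shaft libraries it was 1169 to 1773 in WT (n = 4), 1422 to 1853 in N-IKKα (n = 3) and 2610 to 6095 in C-IKKα (n = 5). There the difference of C-IKKα from WT was 1.53 on the log2 scale (SE 0.20). In the high libraries Alox12e was 639 and 767 in WT, 667, 756 and 1088 in N-IKKα, and 2675 in C-IKKα 14. With sex as a covariate the difference was 1.54 (SE 0.26). Within the low libraries, the single C-IKKα female had 3961, against 1169 and 1575 in the WT females.

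Alox12e shares its run on chromosome 11 with Alox12 and Alox15, and the 3 genes had different patterns. Alox12 (ENSMUSG00000000320.11) ranged from 184 to 523 normalized counts in WT (median 415), from 206 to 489 in N-IKKα (median 308) and from 230 to 511 in C-IKKα (median 363). These ranges overlapped almost fully. Its fitted difference was -0.08 for C-IKKα from WT (SE 0.26) and -0.21 for N-IKKα from WT (SE 0.26, 95% limits -0.75 to 0.33; limma adjusted p = 0.887). The ratio of Alox12e to Alox12 normalized counts within a library was 3.21 ± 0.609 in WT (SD, n = 6), 3.72 ± 0.466 in N-IKKα (n = 6) and 12.1 ± 3.74 in C-IKKα (n = 6). The lowest C-IKKα ratio, 5.10, was above the highest of the other groups, 4.10. Platelet and megakaryocyte markers summed to 219 to 391 normalized counts in WT, 152 to 363 in N-IKKα and 224 to 293 in C-IKKα, with 4 of 8 markers passing the filter and Gp9 at no more than 1.85.

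Alox15, the leukocyte-type enzyme (ENSMUSG00000018924.7), was the rarest member. Its normalized count was 11.1 to 33.4 in WT (median 12.3), 0.93 to 23.8 in N-IKKα (median 8.78), where N-IKKα 8 had 1 read, and 29.4 to 79.5 in C-IKKα (median 52.5). C-IKKα lay above all N-IKKα libraries and overlapped WT through WT 3. The level of 3 reads was between 2.45 and 3.61 normalized counts, so only N-IKKα 8 was under it. The fitted difference was 1.53 for C-IKKα from WT (SE 0.52, 2.90-fold) and -2.45 for N-IKKα from C-IKKα (SE 0.52). N-IKKα differed from WT by -0.91 (SE 0.52, 95% limits -2.01 to 0.19; limma adjusted p = 0.88). In C-IKKα the normalized count of Alox15 was 1.23% ± 0.0823 of that of Alox12e (SD, n = 6), within 1.10% to 1.31% in all 6 mice, against 1.49% ± 0.549 in WT and 0.812% ± 0.542 in N-IKKα. Macrophage and monocyte markers summed to 5403 to 17142 normalized counts in WT, 4341 to 16834 in N-IKKα and 7816 to 17092 in C-IKKα, and all 10 passed the filter. Other leukocyte lists differed in direction. Mast cell markers had medians of 1819 in WT, 1527 in N-IKKα and 1319 in C-IKKα. For neutrophil markers they were 133, 103 and 133, and for eosinophil markers 47.3, 38.8 and 59.3. Langerhans and dendritic cell markers had medians of 10013 in WT, 8638 in N-IKKα and 13359 in C-IKKα, T cell markers of 626, 481 and 749, and B and plasma cell markers of 905, 862 and 1413, with all 3 lists overlapping between groups. The part of these cells in the Alox15 values was not tested.

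The pair that acts in the barrier pathway, Alox12b and Aloxe3, overlapped between all groups. Alox12b, the 12R-lipoxygenase (ENSMUSG00000032807.6), had 52.5 to 256 normalized counts in WT (median 153), 48.5 to 236 in N-IKKα (median 120) and 143 to 312 in C-IKKα (median 164). Aloxe3, the hydroperoxide isomerase that takes its product (ENSMUSG00000020892.11), had 341 to 1003 in WT (median 842), 389 to 979 in N-IKKα (median 638) and 643 to 993 in C-IKKα (median 756). The lowest values of both genes in WT and N-IKKα came from high hair shaft libraries. Against WT, the fitted difference in C-IKKα was 0.33 for Alox12b (SE 0.41) and 0.08 for Aloxe3 (SE 0.26). In N-IKKα it was -0.48 for Alox12b (SE 0.41, 95% limits -1.34 to 0.38) and -0.26 for Aloxe3 (SE 0.26, 95% limits -0.81 to 0.29), with a limma adjusted p of 0.88 for each. Both enzymes act in differentiated keratinocytes. Markers of these cells summed to 52390 to 104676 normalized counts in WT, 50415 to 95651 in N-IKKα and 67354 to 126136 in C-IKKα. The medians of these sums were 91477, 78912 and 82663, and 9 of 10 markers passed the filter. Single markers differed in direction. Means of Krt1, Krt10 and Lor were higher in C-IKKα than in WT, with Krt10 at 42426 and 37632. Those of Flg, Ivl, Casp14, Dsg1a, Dsg1b and Dsc1 were lower, with Flg at 1772 and 2707, and all of these ranges overlapped.

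**Figure D2:**
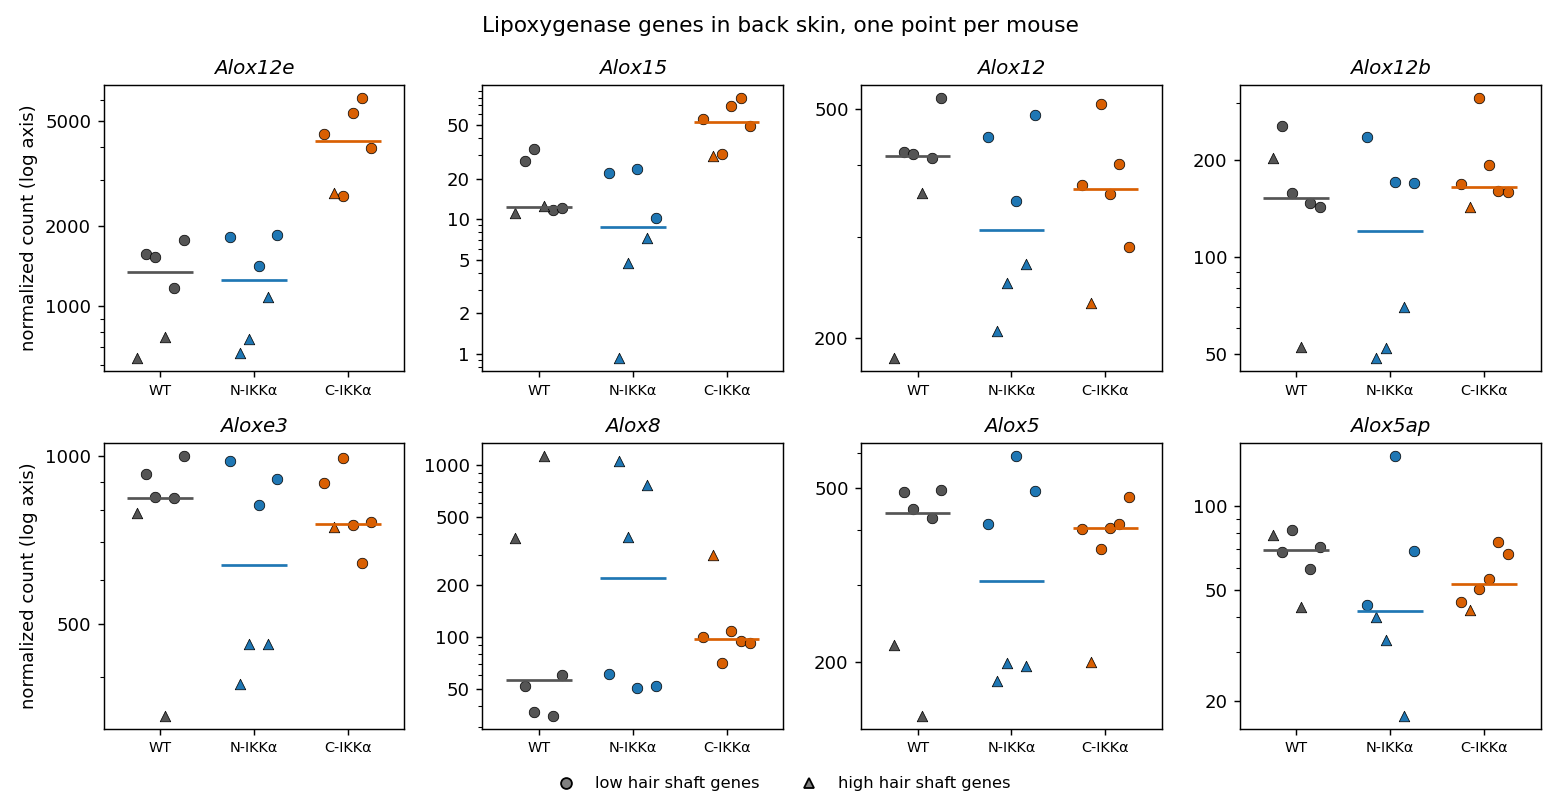
Normalized count of each of the 8 genes in each mouse on a log axis, by genotype group, with triangles for high and circles for low hair shaft libraries and bars for group medians. The C-IKKα points of Alox12e lie above all others, the Alox8 points split by hair state in every group, and the other genes overlap between C-IKKα and WT.

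Alox8, the 8S-lipoxygenase (ENSMUSG00000020891.12), split by hair state in all 3 genotype groups. Its normalized count ran from 35.1 to 1135 in WT (median 56.3), from 51.0 to 1050 in N-IKKα (median 222) and from 70.7 to 302 in C-IKKα (median 98.1). Over all libraries it was 302 to 1135 in the 6 high hair shaft libraries and 35.1 to 109 in the 12 low ones, without overlap, and 8.45% of the tested genes were likewise higher without overlap. The mean log2 difference of high from low libraries was 3.83 within WT, 3.60 within N-IKKα and 1.69 within C-IKKα, which had a single high library. Alox8 made up 6.41% to 41.8% of the per-kb lipoxygenase sum in high libraries and 1.04% to 1.52% in low ones.

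Within the low hair shaft libraries C-IKKα stood apart from the other groups in Alox8, while WT and N-IKKα overlapped. Its normalized count was 35.1 to 60.2 in WT (n = 4, median 44.7), 51.0 to 60.9 in N-IKKα (n = 3, median 52.3) and 70.7 to 109 in C-IKKα (n = 5, median 95.2). All 5 C-IKKα values were above all 7 others; 2.54% of genes were higher than WT and 2.81% higher than N-IKKα in C-IKKα without overlap in these libraries. Over all 18 libraries the fitted difference of C-IKKα from WT was 0.03 (SE 0.91), and over the 12 low libraries it was 1.03 (SE 0.20). With the hair shaft marker mean as a covariate over all 18 it was 0.47 (SE 0.26). N-IKKα against C-IKKα over the low libraries gave -0.75 (SE 0.22), which was not past the threshold (limma adjusted p = 0.316). In the high libraries the single C-IKKα value of 302 was below the WT values of 377 and 1135 and the N-IKKα values of 382, 762 and 1050. N-IKKα differed from WT by 0.80 over all libraries (SE 0.91, 95% limits -1.12 to 2.72; limma adjusted p = 0.88) and by 0.27 over the low ones. Across the 12 low libraries log2 values of Alox8 and Alox12e had a Pearson correlation of 0.94, and across all 18 it was -0.48; the points share genotype groups and, in the second case, hair states.

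**Figure D3:**
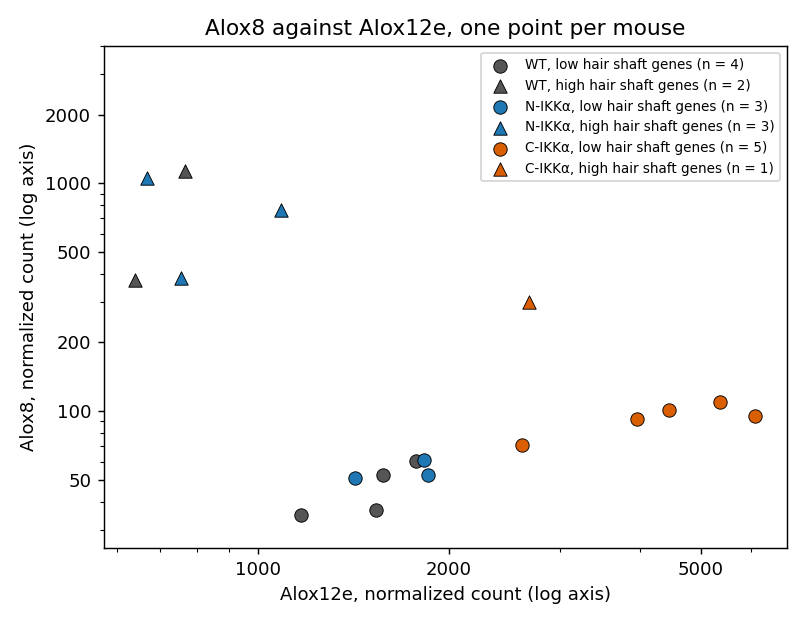
Alox8 against Alox12e, both as normalized counts on log axes, 1 point per mouse, with colours for the genotype group and shapes for the hair state. The 6 high hair shaft libraries lie at 302 or more for Alox8, and among the other 12 the C-IKKα mice are highest on both axes.

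Alox5 and Alox5ap, the leukotriene pair, did not separate the genotypes. Alox5 (ENSMUSG00000025701.13) had 151 to 494 normalized counts in WT (median 437), 181 to 592 in N-IKKα (median 306) and 200 to 476 in C-IKKα (median 404). Its fitted difference from WT was 0.10 in C-IKKα (SE 0.35) and -0.14 in N-IKKα (SE 0.35, 95% limits -0.88 to 0.60; limma adjusted p = 0.936). By hair state it was the reverse of Alox8, with 151 to 219 in the 6 high libraries and 362 to 592 in the 12 low ones. The mean log2 difference of high from low was -1.35 within WT, -1.36 within N-IKKα and -1.03 within C-IKKα, and 5.25% of tested genes were likewise lower without overlap. Alox5ap (ENSMUSG00000060063.10) had 43.4 to 82.2 in WT (median 69.8), 17.7 to 151 in N-IKKα (median 42.2) and 42.4 to 74.0 in C-IKKα (median 52.5). Its fitted difference from WT was -0.27 in C-IKKα (SE 0.36) and -0.47 in N-IKKα (SE 0.36, 95% limits -1.22 to 0.28; limma adjusted p = 0.88). Its highest value, 151, was in N-IKKα 10, the library that also had the highest Alox5 and the highest sum of T cell markers and of eosinophil markers. Other leukocyte lists were highest elsewhere. Macrophage and neutrophil markers peaked in WT 1 and mast cell markers in WT 5. Langerhans and dendritic cell markers and B and plasma cell markers peaked in C-IKKα 17.

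The other members were lower in the high hair shaft libraries with partial overlap. The median of Alox12e was 762 in high and 1842 in low libraries, that of Alox12b 61.2 and 170, that of Aloxe3 460 and 870, and that of Alox12 239 and 415. Alox15 had medians of 9.20 and 28.8, and Alox5ap of 41.2 and 68.0. The mean log2 difference of high from low libraries in Alox12e was -1.09 within WT, -1.04 within N-IKKα and -0.69 within C-IKKα. In C-IKKα the single high library, at 2675, was above C-IKKα 15, at 2610. Most marker lists were also lower in the high libraries. Differentiated keratinocyte markers were at 50415 to 83468 in high and 78852 to 126136 in low libraries, and macrophage markers had medians of 6341 and 11345. T cell markers did not overlap, at 236 to 401 in high and 572 to 842 in low libraries. Langerhans and dendritic cell markers had medians of 5562 and 12385. Basal keratinocyte markers had medians of 61149 and 78472, sebaceous gland markers of 58139 and 103318, and adipocyte markers of 31630 and 65059. For skeletal muscle markers the medians were 50677 and 100638, for B and plasma cell markers 441 and 1366, for eosinophil markers 30.8 and 59.3, and for platelet markers 221 and 271. Mast cell markers went the other way, with medians of 1681 in high and 1257 in low libraries, as did erythroid markers at 320 and 208. Neutrophil markers had medians of 118 and 129. The part of these cells in the members' values was not tested. The median difference between high and low over all tested genes was -0.01 on the log2 scale.

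Counted over the family, no member passed the test in N-IKKα against WT (0 of 8 by limma at an adjusted p under 0.05, 0 at an unadjusted p under 0.05, and 0 by edgeR and by DESeq2). Of all tested genes 0.00566% passed, 1 of 17667, and 731 had an unadjusted p under 0.05. In this contrast 2 of the 8 fitted differences were above 0 and their median was -0.24. In C-IKKα against WT 1 of 8 lay past the same threshold, Alox12e, the gene of the choice, as did 0.345% of all genes, and Alox12e was the only member without overlap; 0.838% of genes were higher without overlap. In N-IKKα against C-IKKα, 2 of 8 lay past it, Alox12e and Alox15, as did 0.43% of all genes in either direction, and 0.736% were lower in N-IKKα without overlap. Alox15 was not past the threshold there by edgeR, with sex as a covariate or without the high hair shaft libraries. Among the 12 low libraries 2 of 8 lay past it in C-IKKα against WT, Alox12e and Alox8, as did 0.866% of all genes in the higher direction, and the same pair did not overlap. All counts of this kind hold the C-IKKα libraries by which the family was chosen, so nothing is read from them.

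**Figure D4:**
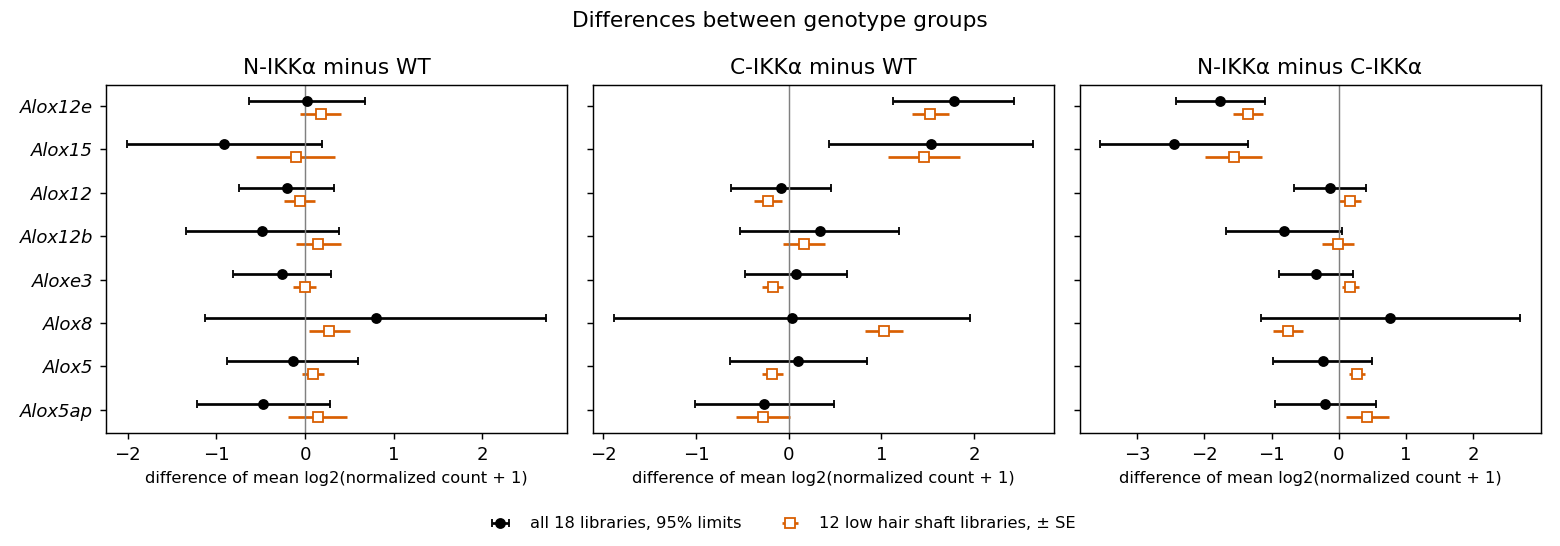
Fitted difference on the log2(normalized count + 1) scale for each gene in the 3 comparisons, over all 18 libraries with 95% limits (black) and over the 12 low hair shaft libraries with SE (orange). The limits of N-IKKα against WT cover 0 for all 8 genes over all libraries. Alox12e in C-IKKα against WT stands at 1.78 over all and 1.53 over the low libraries.

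The genes most like Alox12e in log2 level over the 18 libraries were Relb (Pearson r 0.97), a subunit of the noncanonical NF-κB complex, H2-M2 (0.966) and Etv3l (0.963). Relb was 457 ± 129 normalized counts in WT, 417 ± 139 in N-IKKα and 1039 ± 350 in C-IKKα (SD, n = 6 each), and over the 12 low libraries its r with Alox12e was 0.967. For Alox15 the first was Pglyrp3 (0.916), a peptidoglycan recognition protein, at 102 ± 24.7 in WT, 93.0 ± 48.8 in N-IKKα and 275 ± 115 in C-IKKα. For Alox8 the first were Ctse (0.987), Crym (0.983) and Slc34a2 (0.983). For Aloxe3 the first was Fxyd1 (0.959) and Krt10 (0.955), a keratin of differentiating keratinocytes, was among its 3. For Alox12b the first was Aif1l (0.956), for Alox12 Arhgef28 (0.921), for Alox5 Itm2b (0.959), and for Alox5ap Mrc1 (0.902), the mannose receptor of macrophages. Over the 12 low libraries r was lower for these first genes, at 0.868 for Alox15, 0.856 for Alox8, 0.707 for Aloxe3, 0.780 for Alox12b, 0.705 for Alox12, 0.341 for Alox5 and 0.797 for Alox5ap. These points share genotype groups, hair states and sex, so the coefficients are descriptions. The group levels of Relb and Pglyrp3 follow from their choice by likeness over all 18 libraries and are descriptions too. With each group's mean subtracted, r was 0.929 for Relb with Alox12e and 0.831 for Pglyrp3 with Alox15. Among the members themselves Alox12e and Alox15 had r 0.86 over all and 0.84 over the low libraries, Alox12b and Aloxe3 0.92 and 0.43, Alox5 and Alox5ap 0.68 and 0.83, and Alox8 and Alox5 -0.94 and -0.37.

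The enzymes and receptors around the lipoxygenases were counted in 7 lists of 89 genes, of which 68 were tested. In N-IKKα against WT 0 of 68 passed by limma, edgeR or DESeq2, and 3 had an unadjusted p under 0.05, as did 4.14% of all genes (Abhd5 -0.23, Ptgs2 -0.69 and Nipal4 -0.20). Of the 68 differences 13 were above 0, with a median of -0.16, against 51.2% of all genes and a median of 0.01. Over the 12 low hair shaft libraries 32 of the 68 were above 0, with a median of -0.028. In C-IKKα against WT 1 of 68 lay past the threshold, Cyp2j13, of the Cyp2j cytochrome P450 family whose members can form epoxides of arachidonate. Of the 68, 37 were above 0 over all libraries and 26 over the low ones. Cyp2j13 was 4.87 ± 2.21 normalized counts in WT, 4.13 ± 2.45 in N-IKKα and 60.4 ± 32.1 in C-IKKα (SD, n = 6 each). Its lowest C-IKKα value was 16.5 and the highest of the others 7.18. It met the filter on low values only through the C-IKKα libraries, so it had to differ there and its crossing of the threshold supports nothing. Its fitted difference was 3.26 on the log2 scale for C-IKKα from WT (SE 0.49) and -3.50 for N-IKKα from C-IKKα (SE 0.49), given as a description. No other pathway gene lay past the threshold in N-IKKα against C-IKKα, and 10 of 68 had an unadjusted p under 0.05, as did 11.7% of all genes.

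By list, none of the 11 tested phospholipases A2, which release the fatty acid substrates, passed in any of the 3 comparisons. Pla2g2f, a secreted phospholipase of suprabasal epidermis, was 3363 ± 470 normalized counts in WT, 2824 ± 578 in N-IKKα and 3260 ± 685 in C-IKKα (SD, n = 6 each). None of 11 tested leukotriene genes passed either. Ltb4r1, the leukotriene B4 receptor, was 503 ± 82.4 in WT, 444 ± 101 in N-IKKα and 427 ± 97.2 in C-IKKα. None of 12 tested cyclooxygenase and prostanoid enzymes and none of 6 tested prostanoid receptors passed. Ptges, a prostaglandin E synthase, was 897 ± 213 in WT, 675 ± 251 in N-IKKα and 984 ± 136 in C-IKKα. These means hold uneven numbers of high hair shaft libraries. For Ptges the log2 difference of N-IKKα from WT was -0.45 over all libraries and -0.14 over the low ones. Ptger4, a prostaglandin E2 receptor, was 894 ± 169 in WT, 991 ± 148 in N-IKKα and 783 ± 62.7 in C-IKKα.

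None of the 15 tested genes of the 12R-lipoxygenase barrier pathway passed in any comparison. Elovl4, which makes the very long fatty acids of the barrier ceramides, was 23203 ± 4258 in WT, 18636 ± 8691 in N-IKKα and 27567 ± 2422 in C-IKKα (SD, n = 6 each). Its log2 difference of N-IKKα from WT was -0.45 over all libraries and 0.13 over the low hair shaft ones. That of C-IKKα from WT was 0.27 and 0.26. Cers3, the ceramide synthase that uses these fatty acids, was 765 ± 268 in WT, 761 ± 239 in N-IKKα and 553 ± 81.0 in C-IKKα. Its log2 difference of C-IKKα from WT was -0.42 over all libraries and -0.15 over the low hair shaft ones. Of the 7 tested cytochrome P450 genes none but Cyp2j13 lay past the threshold. Its relative Cyp2j12 was 152 ± 54.8 in WT, 117 ± 72.5 in N-IKKα and 199 ± 37.5 in C-IKKα, and whether reads were shared among Cyp2j genes was not tested. None of the 6 tested receptors of lipoxygenase products passed. Pparg, a nuclear receptor that oxidized fatty acids activate, was 663 ± 278 in WT, 475 ± 209 in N-IKKα and 758 ± 94.6 in C-IKKα. Its log2 difference of N-IKKα from WT was -0.50 over all libraries and -0.22 over the low hair shaft ones.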

How the data were processed

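RNA of 18 back skins was sequenced with a stranded mRNA kit as paired-end reads, per the labels' protocols, and counted with featureCounts on GRCm39, per the submitters' processing notes. For the aligner, annotation, strand setting, versions and scaling, nothing is given in the sources used here. The authors deposited a signal for every gene in every library, on the scale of normalized counts. Divided by the worth of 1 read, 100% of values above 0 came out whole within 0.001 in all libraries, and recovered reads totalled 11147431 to 15692431.

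Genes with at least 10 normalized counts in at least 6 libraries were kept. limma 3.58.1 (R 4.3.3; empirical Bayes with a mean-variance trend) was fitted to log2(normalized count + 1) over all 18 libraries with 1 mean per group, two-sided, with Benjamini-Hochberg adjustment over all tested genes and a threshold of 0.05. A fold on this scale understates the change of low genes. edgeR 4.0.16 (quasi-likelihood) and DESeq2 1.42.0 were run on the recovered reads as alternatives, with other pseudocounts, filters, scalings, covariates and leaving out libraries. The script was tested on simulated data. Levels per length used merged exons of GENCODE M21, matched by gene ID. Hair state was set from a marker list that holds no member, at a mean log2 value of 8. The text names all members and the called pathway genes. From the other pathway genes it names some of those with the smallest p of their list in at least 1 comparison. The 3 genes most correlated with each member were found, leaving out numbered gene models, and at least the first is named. Members and lists were chosen with earlier results of these data known. The labels number the mice, so p-values measure the spread between these mice.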

Additional observations from a re-analysis of the deposited data

Results flagged for a closer look

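Each of these values stood apart from the other 5 of its group by Dixon's 95% criterion, which chance meets in about 1 of 20 groups, and 24 groups (8 genes in 3 genotypes) were examined. Alox8 was 1135 normalized counts in WT 4 against 35.1 to 377 in the other WT mice, and 302 in C-IKKα 14 against 70.7 to 109. Both are high hair shaft libraries, and WT 4 has the highest sum of hair shaft markers of all 18. Aloxe3 was 341 in WT 4, against 789 to 1003 in the other WT mice. Alox12b was 312 in C-IKKα 15, against 143 to 192 in the other C-IKKα mice; the same library has the highest sums of basal and of differentiated keratinocyte markers. The part of hair state or cell content in these values was not tested.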

How the results depend on the processing

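No member passed in N-IKKα against WT under any alternative run (smallest limma, edgeR or DESeq2 adjusted p of any member 0.322). The counts that hold C-IKKα are descriptions, since the family was chosen by Alox12e there. The number of members past the threshold in C-IKKα against WT went from 1 to 2 without the 6 high hair shaft libraries, by Alox8. In N-IKKα against C-IKKα it went from 2 to 1 with a filter of 50, which removes Alox15 before the test. Alox15 was also lost with a pseudocount of 0.5, no filter, edgeR, only the groups compared, the sex covariate, or without the 6 high hair shaft libraries. Leaving out 1 library gave 1 to 2, with Alox15 lost without N-IKKα 8, 9, 11 or 12 or C-IKKα 13, 14, 16, 17 or 18. The causes were not tested. Of the pathway genes, 0 in place of 1 lay past it in C-IKKα against WT and in N-IKKα against C-IKKα with a filter of 50, which removes Cyp2j13, and 3 in C-IKKα against WT without the high hair shaft libraries. The sign of N-IKKα against WT changed for Alox12e without 1 library (range -0.15 to 0.18, with -0.15 without WT 1, -0.10 without WT 4, -0.11 without N-IKKα 7, -0.04 without N-IKKα 10 and -0.11 without N-IKKα 12). It changed for Alox12b (0.15), Alox5 (0.091) and Alox5ap (0.14) without the high hair shaft libraries, and for Alox5 with the hair covariate (0.045) and without 1 library (-0.37 to 0.013, the latter without N-IKKα 8). Alox8 in C-IKKα against WT ran from -1.14 to 1.03 over the alternatives. No paired analysis was possible because the groups share no replicate numbers. Counts near 3 reads limit Alox15 in N-IKKα.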

Other observations

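Among the 12 low hair shaft libraries, 2 of the 68 tested pathway genes beside Cyp2j13 lay past the threshold in C-IKKα against WT. Cyp2j13 met the filter only through C-IKKα and is left out of this count. In the same fit 0.866% of all genes lay past the threshold in the higher direction, and nothing is read from the count. Cyp1b1, a cytochrome P450 that oxidizes arachidonate and steroids, differed by 0.65 on the log2 scale (limma adjusted p = 0.027) and by 0.32 over all 18 libraries (adjusted p = 0.985). Trpv1, a cation channel that lipoxygenase products can open, differed by 1.31 (limma adjusted p = 0.019) and by 0.67 over all 18 (adjusted p = 0.985). Both stand on a set of libraries read from the data, with 4 WT and 5 C-IKKα mice.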
